A study of Homo sapiens with 12 samples.

Results

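The kidney tubular injury markers examined here were 10 genes: HAVCR1, LCN2, CLU, SPP1, VCAM1, CST3, CD24, SOX9, SOX4 and FABP1. They were taken by name, and the array's annotation assigned 28 probe sets to 1 of them and to no other gene, with 0 probe sets naming a member together with another gene. Where a gene had several probe sets, the one with the highest 12-array mean stood for it, and the others served as a check. The array covered 19775 genes in this way. Tests were run on the 11184 genes that exceeded log2 4 on 3 or more arrays, since lower values lie at the background. Of the 10 members, 8 had a mean over log2 4 and passed this filter, while LCN2 and FABP1 lay under log2 4 on every array.

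The arrays measured RNA from HK-2 cells, an immortalised line of human proximal tubule epithelium, grown with epidermal growth factor and hydrocortisone in the medium. The groups were HK-2 cells given a high dose of the compound Aa for 24 h, HK-2 cells given it for 48 h, and HK-2 cells given its vehicle for 24 h or for 48 h, with 3 biological replicates in each. All groups therefore share 1 immortalised line, and the labels say neither what Aa is nor how high the dose was. Nothing in the labels ties the replicates to separately grown stocks, so the p-values measure the spread between these samples. The values are GCRMA values on the log2 scale, and a difference of 1 between them is a doubling.

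HAVCR1 encodes kidney injury molecule 1 (KIM-1), a membrane protein that injured proximal tubule cells put on their surface and shed into urine. LCN2 encodes neutrophil gelatinase-associated lipocalin, an iron-siderophore carrier released by stressed tubules. Clusterin (CLU), osteopontin (SPP1), cystatin C (CST3) and liver fatty acid binding protein (FABP1) are further proteins measured in urine or blood as signs of tubular damage or of lost filtration or reabsorption. VCAM1, an adhesion molecule for leukocytes, marks tubule cells that fail to recover after injury. CD24 is a surface glycoprotein of progenitor-like tubule cells, and SOX9 and SOX4 are transcription factors of developing kidney, of which SOX9 returns in tubule cells that regenerate.

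At 24 h, 3 of the 8 tested members were lower in Aa cells than in vehicle cells and 0 were higher. The 3 lower genes were HAVCR1, VCAM1 and SOX9. At 48 h, 4 were lower, namely HAVCR1, VCAM1, CD24 and SOX4, and 1 was higher, which was SOX9. The call was an adjusted p under 0.05 in limma, with adjustment over all 11184 genes tested. At an unadjusted p under 0.05, limma again gave 0 members higher at 24 h, where 29.4% of all genes tested were.

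These counts stand against a broad change of the transcriptome. Of all genes tested, 49.1% were called at 24 h, with 26.3% higher and 22.8% lower in Aa cells. At 48 h, 64.5% were called, with 30.6% higher and 33.9% lower. The 3 of 8 members called at 24 h and the 5 of 8 called at 48 h are close to these shares. The median log2 change of the 8 members was -0.26 at 24 h and -0.72 at 48 h, beside 0.02 and -0.03 over all genes tested. Arrays scaled to equal hybridisation controls, which are spike-in transcripts supplied by the manufacturer, moved the median of all genes to -0.26 at 24 h and -0.47 at 48 h. The share of higher genes among those called was 29.9% at 24 h and 23.2% at 48 h under that scaling, against 53.6% and 47.5% in the deposited values. It also called 5 members lower at 24 h, where it called 49.3% of all genes, adding CD24 (-0.39, adjusted p = 0.0403) and SOX4 (-0.47, adjusted p = 0.0421). The same scaling added CLU (-0.95, adjusted p = 0.00501) and SPP1 (-0.53, adjusted p = 0.00281) as lower at 48 h, where it called 68.9% of all genes.

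**Figure D1:**
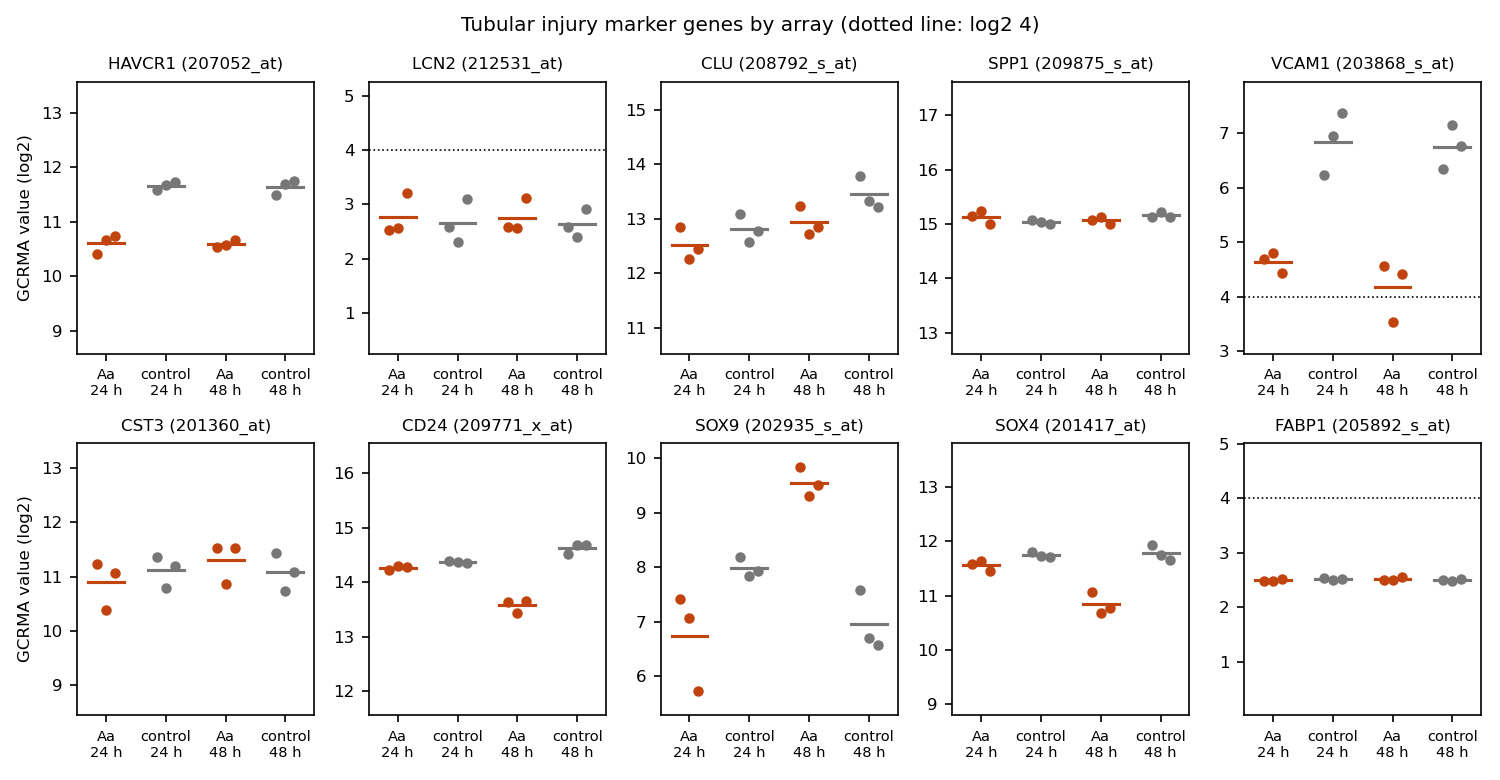
GCRMA values (log2) of the 10 marker genes on each of the 12 arrays, in Aa and vehicle (control) cells at 24 h and 48 h. Points are arrays, bars are group means of 3 arrays, and the dotted line marks log2 4: HAVCR1 and VCAM1 lay lower on every Aa array than on every vehicle array, SOX9 lay highest in Aa cells at 48 h, and LCN2 and FABP1 stayed under the line.

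HAVCR1 carries the best known transcript of tubular injury, and in these cells it was present and lower under Aa. Its single probe set read 10.41, 10.66 and 10.73 in Aa cells at 24 h, against 11.58, 11.67 and 11.73 in vehicle cells. At 48 h it read 10.53, 10.57 and 10.66 in Aa cells, against 11.49, 11.69 and 11.75 in vehicle cells. All 6 Aa arrays lay under all 6 vehicle arrays. The log2 change was -1.06 at 24 h (SE 0.111, limma adjusted p = 2.18e-05), which is 2.08-fold lower in Aa cells. At 48 h it was -1.05 (SE 0.111, limma adjusted p = 1.16e-05), which is 2.07-fold lower. The 48 h change minus the 24 h change was 0.00472 with a 95% confidence interval of -0.34 to 0.35.

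VCAM1 had the largest fall among the members' used probe sets at both times. In Aa cells it read 4.69, 4.81 and 4.43 at 24 h, against 6.23, 6.95 and 7.37 in vehicle cells. At 48 h the Aa arrays read 4.57, 3.54 and 4.42, against 6.34, 7.16 and 6.78 in vehicle cells. The groups did not overlap at either time, and 1 Aa array at 48 h lay under log2 4, where a value has no order. VCAM1 was 4.61-fold lower in Aa cells at 24 h (log2 change -2.21, SE 0.332, limma adjusted p = 0.000261). It was at least 5.39-fold lower at 48 h with values under log2 4 set to log2 4, and the fitted log2 change was -2.58 (SE 0.332, limma adjusted p = 4.81e-05). The difference between the times was -0.38 with a 95% confidence interval of -1.41 to 0.66.

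The VCAM1 promoter is known for a pair of adjacent NF-kB sites through which inflammatory signals act, which is why its sequence is shown. RefSeq windows of 250 bases before to 50 after a gene's start (GRCh38.p14) were given for 8 of the 10 members, in 10 windows. The VCAM1 window is chr1:100719492-100719791 on the plus strand. It runs 5′ to 3′, and capitals mark matches to the NF-kB form GGGNNTNCC.
VCAM1: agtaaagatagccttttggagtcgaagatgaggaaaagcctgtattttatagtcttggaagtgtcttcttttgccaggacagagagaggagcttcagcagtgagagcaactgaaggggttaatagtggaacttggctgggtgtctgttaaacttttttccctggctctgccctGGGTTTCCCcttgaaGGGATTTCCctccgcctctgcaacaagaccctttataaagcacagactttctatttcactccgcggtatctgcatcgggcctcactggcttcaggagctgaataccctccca

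The 2 matches begin at positions -77 and -62 and a TATAAA at -29, counted from the annotated start. The NF-kB form also occurred in the windows of FABP1 and SOX4 and in all 3 windows given for CD24. FABP1 held a TATAAA too, and LCN2 held the AP-1 form TGANTCA. The windows of HAVCR1, SPP1 and CST3 held none of these forms nor the STAT form TTCNNNGAA. Both strands were searched, and the TATAAA of VCAM1 overlaps its own reverse-strand match. Among 35116 windows of 300 bases, 20.5% held GGGNNTNCC, 7.71% TGANTCA, 11.5% TATAAA and 7.66% TTCNNNGAA. The NF-kB form was chosen after the windows had been seen, and a match describes letters, not binding.

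SOX9 was the member that changed in opposite directions at the 2 times. In Aa cells at 24 h its probe set read 7.41, 7.06 and 5.73, against 8.19, 7.84 and 7.92 in vehicle cells. The 48 h readings were 9.84, 9.30 and 9.52 in Aa cells, against 7.58, 6.70 and 6.58 in vehicle cells. The groups did not overlap at either time, with Aa cells below at 24 h and above at 48 h. The log2 change at 24 h was -1.25 (SE 0.391, limma adjusted p = 0.0205), or 2.39-fold lower. At 48 h it was 2.60 (SE 0.391, limma adjusted p = 0.000152), or 6.07-fold higher. The difference between the 2 changes was 3.86 (SE 0.553, limma adjusted p = 0.00224).

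The 24 h fall of SOX9 depended on single arrays. Without Aa replicate 3, which had the lowest value, the log2 change was -0.75 (limma adjusted p = 0.0553). Without vehicle replicate 1 it was -1.15 (limma adjusted p = 0.0654). With no filter on low values the adjusted p was 0.0585. Vehicle cells also had less SOX9 at 48 h than at 24 h, by -1.04 on the log2 scale with no overlap. That difference did not pass the test (limma adjusted p = 0.214), and passed with the replicate number as a block (adjusted p = 0.0425).

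A second probe set of SOX9, 202936_s_at, also went in opposite directions. Its log2 change was -2.28 at 24 h (limma adjusted p = 0.00103) and 1.01 at 48 h (limma adjusted p = 0.0533, and 0.00648 with the replicate block). The 48 h minus 24 h difference passed the test for it too, at 3.29 (limma adjusted p = 0.00627). The 2 probe sets stood in a different ratio in the 2 treatments. The used probe set exceeded the second by 0.99 ± 0.10 in Aa cells at 24 h and 1.61 ± 0.20 in Aa cells at 48 h, against -0.03 ± 0.09 and 0.02 ± 0.19 in vehicle cells (log2, SD, n = 3 arrays each). The lowest Aa array, at 0.887, lay over the highest vehicle array, at 0.210.

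CD24 fell at 48 h. Its used probe set read 14.23, 14.30 and 14.28 in Aa cells at 24 h, against 14.40, 14.37 and 14.36 in vehicle cells. At 48 h the Aa arrays read 13.63, 13.44 and 13.65, against 14.52, 14.68 and 14.68 in vehicle cells. The Aa arrays lay under the vehicle arrays at both times, by little at 24 h. The log2 change was -0.11 at 24 h (SE 0.0907, limma adjusted p = 0.347) and -1.05 at 48 h (SE 0.0907, limma adjusted p = 2.70e-06). At 48 h this is 2.07-fold lower. The difference between the times was -0.94 (SE 0.128, limma adjusted p = 0.00178).

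All 6 probe sets annotated to CD24 were called lower at 48 h, by -1.05 to -1.77 on the log2 scale. At 24 h 1 of them, 208650_s_at, was called lower (log2 change -0.51, limma adjusted p = 0.0491). With the replicate block 209772_s_at passed as well (-0.47, adjusted p = 0.0158, and 0.1005 without the block). CD24 has near-identical pseudogene copies, and 3 of its probe sets, the used one among them, carry the manufacturer's suffix _x_at for probes shared with other transcripts. The CD24 values are therefore uncertain as to which copy they measure.

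SOX4, the second transcription factor of the set, also fell at 48 h by its used probe set. It read 11.59, 11.63 and 11.46 in Aa cells at 24 h, against 11.79, 11.73 and 11.72 in vehicle cells. The 48 h readings were 11.06, 10.68 and 10.77 in Aa cells, against 11.93, 11.75 and 11.65 in vehicle cells. Neither time had an overlap. The log2 change was -0.19 at 24 h (SE 0.118, limma adjusted p = 0.212) and -0.94 at 48 h (SE 0.118, limma adjusted p = 4.21e-05). The difference was -0.75 (SE 0.167, limma adjusted p = 0.0133).

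The 4 probe sets of SOX4 over log2 4 did not move alike. At 48 h 201416_at was called lower at -0.51 (limma adjusted p = 0.00610). The others were at -0.29 for 201418_s_at (limma adjusted p = 0.0991) and 0.44 for 213668_s_at (limma adjusted p = 0.177). With the replicate block both of those passed, the first lower (adjusted p = 0.0340) and the second higher (adjusted p = 0.0207). The mean of all probe sets of SOX4 changed by -0.23 at 48 h and was not called (limma adjusted p = 0.0626). That mean takes in 213665_at and 1567906_at, which lay under log2 4 on every array and draw it towards no change.

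**Figure D2:**
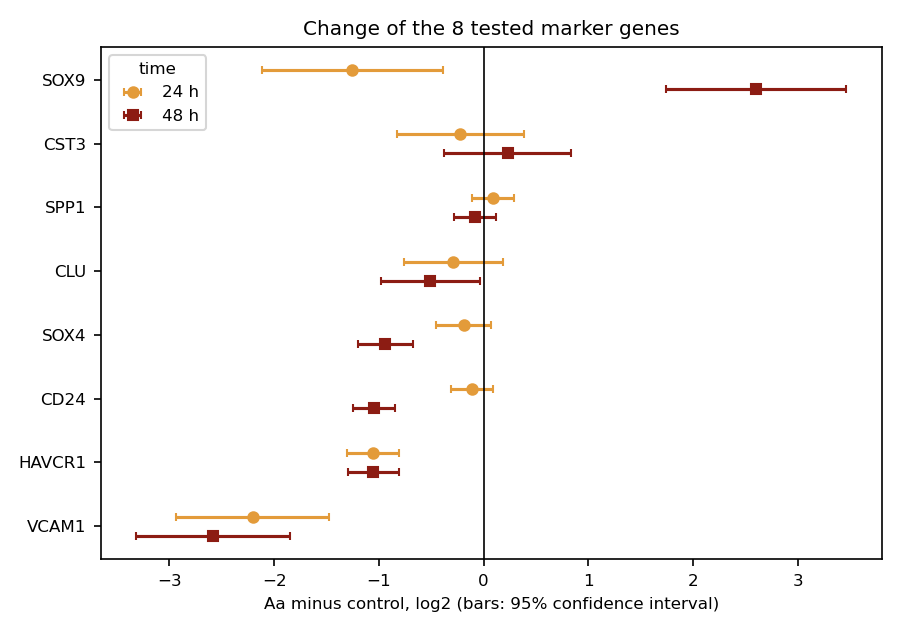
Log2 change, Aa minus vehicle, of the 8 tested marker genes at 24 h (circles) and 48 h (squares), with 95% confidence intervals from the limma fit over 12 arrays. SOX9 lies at -1.25 at 24 h and at 2.60 at 48 h, HAVCR1 and VCAM1 lie below 0 at both times, and CD24 and SOX4 move away from 0 at 48 h.

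The secreted markers CLU, SPP1 and CST3 were not called by their used probe sets at either time. Clusterin is a chaperone that binds misfolded proteins outside the cell. CLU read 12.85, 12.25 and 12.45 in Aa cells at 24 h, against 13.09, 12.56 and 12.77 in vehicle cells. At 48 h it read 13.24, 12.73 and 12.86 in Aa cells, against 13.79, 13.33 and 13.22 in vehicle cells. The groups overlapped at both times, yet within each replicate number the Aa array was lower. The log2 change was -0.29 at 24 h (SE 0.213, limma adjusted p = 0.289) and -0.51 at 48 h (SE 0.213, limma adjusted p = 0.0565). With the replicate number as a block the adjusted p was 0.0110 at 24 h and 0.000327 at 48 h. Tested by themselves, 2 other CLU probe sets were called lower at 48 h, at -0.59 and -0.74 (limma adjusted p = 0.0454 and 0.0450), and a further one lay under log2 4.

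Osteopontin is a secreted ligand of integrins and of CD44. SPP1 read 15.14, 15.24 and 14.99 in Aa cells at 24 h, against 15.07, 15.03 and 15.002 in vehicle cells. The 48 h values were 15.07, 15.13 and 15.003 in Aa cells, against 15.13, 15.21 and 15.13 in vehicle cells. The groups overlapped at both times. The log2 change was 0.09 at 24 h (95% confidence interval -0.11 to 0.29, limma adjusted p = 0.435) and -0.09 at 48 h (-0.29 to 0.11, limma adjusted p = 0.426). Whether signals this strong were saturated was not tested. The second SPP1 probe set, with a mean of 5.39, was at 0.31 and 0.15 and was not called (limma adjusted p = 0.425 and 0.684).

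Cystatin C is a secreted inhibitor of cysteine proteases. CST3 read 11.24, 10.38 and 11.06 in Aa cells at 24 h, against 11.37, 10.79 and 11.20 in vehicle cells. The 48 h readings were 11.53, 10.86 and 11.53 in Aa cells, against 11.43, 10.73 and 11.08 in vehicle cells. The groups overlapped at both times, and replicate 2 was the lowest array of all 4 groups. The log2 change was -0.22 at 24 h (95% confidence interval -0.83 to 0.38, limma adjusted p = 0.533) and 0.23 at 48 h (-0.38 to 0.83, limma adjusted p = 0.487). With the replicate block CST3 passed at 48 h as higher (adjusted p = 0.0462). The difference between the times was 0.45 (limma adjusted p = 0.437, and 0.0231 with the block).

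The other 2 probe sets annotated to CST3 behaved differently from the used one. Probe set 230343_at read 6.32 to 6.58 in Aa cells at 24 h and 6.49 to 6.60 at 48 h, while all 6 vehicle arrays lay under log2 4. It was at least 5.63-fold higher at 24 h and at least 5.92-fold higher at 48 h. Probe set 237623_at was at least 2.907-fold higher at 24 h and at least 4.09-fold higher at 48 h. Both needed their Aa arrays to pass the filter, so their limma calls add no support. Which transcript these 2 probe sets detect was not tested. The mean of all 3 probe sets moved by 1.85 at 24 h and 2.26 at 48 h, and this rests on the 2 dimmer ones.

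LCN2 and FABP1 were not tested. LCN2 read 2.32 to 3.20 over the 12 arrays and FABP1 2.48 to 2.56, with the second FABP1 probe set also under log2 4 throughout. With no filter on low values their adjusted p was 0.777 and 0.424 at 24 h and 0.915 and 0.885 at 48 h, in limma over 19775 genes. Values this low bound the signal only from above and give no order between the groups.

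**Figure D3:**
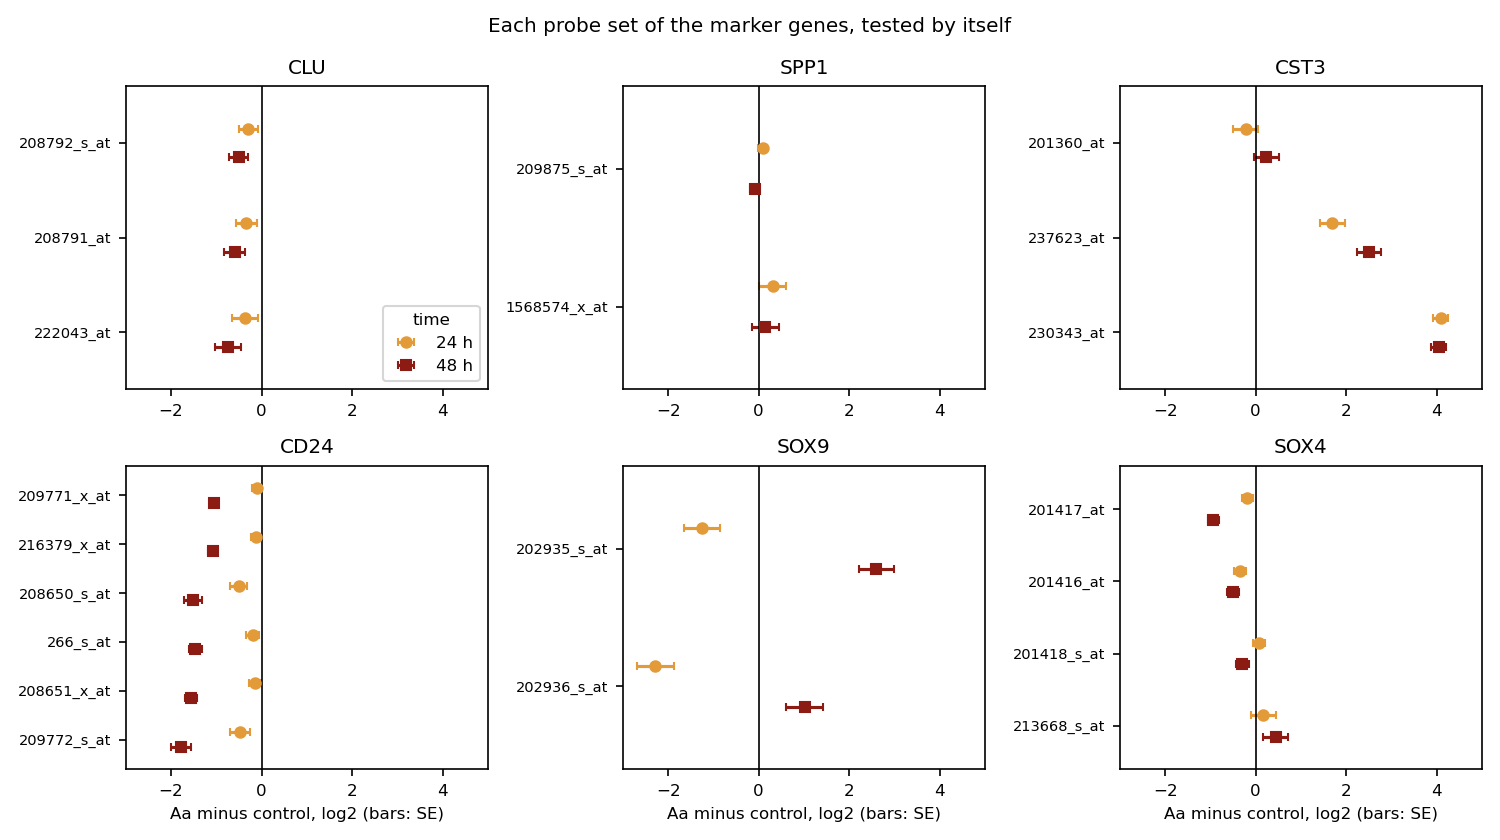
Log2 change, Aa minus vehicle, with SE bars, of each probe set over the background for the 6 members that have several, at 24 h (circles) and 48 h (squares). All 6 CD24 sets lie below 0 at 48 h, the SOX4 sets spread from -0.94 to 0.44 at 48 h, and 2 of the 3 CST3 sets lie far above 0.

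Over single probe sets, 22 of the 28 passed the filter. At 24 h, 2 were called higher and 5 lower in Aa cells, with 46.5% of all 23669 probe sets tested called. At 48 h, 3 were higher and 12 lower, with 60.7% of all called. Among the higher ones at both times were CST3 probe sets 230343_at and 237623_at, which needed their Aa arrays to pass the filter. The change differed between the times for 9 of the 22, 2 upward and 7 downward, against 15.5% of all. Of the 7, 6 were CD24 probe sets and therefore share a target.

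By gene, the change differed between the times for 3 of the 8 members, SOX9 upward and CD24 and SOX4 downward. With the replicate block it was 4 of 8, with CST3 upward added, where 38.6% of all genes tested differed. The mean of all probe sets of SOX4, which includes those under log2 4, did not differ between the times (-0.16, limma adjusted p = 0.443). Of all genes tested 19.5% differed, 6.80% upward and 12.7% downward. In vehicle cells alone, 48 h against 24 h, 0 of the 8 members were called in limma, where 0.635% of all genes were (0.277% higher, 0.358% lower). At an unadjusted p under 0.05 that count was 3, where 17.1% of all genes passed, with CLU and CD24 higher and SOX9 lower at 48 h. With the replicate block 2 members were called, where 14.9% of all genes were, CLU higher by 0.64 (adjusted p = 0.00426) and SOX9 lower. Over single probe sets 0 of 22 were called between the vehicle times, against 0.224% of all. At an unadjusted p under 0.05 it was 8 of 22, where by gene 17.1% of all passed in limma. The share of all probe sets at that level was not computed, and several member probe sets share a gene. The 8 are therefore not read as a result about the members.

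The groups did not overlap for 5 of the 8 members at 24 h, where 59.8% of all genes tested did not overlap. The count at 48 h was 5 of 8, against 69.1% of all genes. Between the vehicle times it was 4 of 8, against 22.6%. The 5 members without overlap were HAVCR1, VCAM1, CD24, SOX9 and SOX4 at both times. The replicate block, which removes what same-numbered arrays share, called 4 of the 8 members at 24 h, where it called 61.5% of all genes, and 7 at 48 h, where it called 73.3%. The members it added were CLU at both times and CST3 at 48 h.

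RNA quality moved with the treatment at 48 h. The 3′ signal of the actin and GAPDH control probe sets exceeded the 5′ signal by 0.542 on average in Aa cells at 48 h (0.431 to 0.680), against 0.319 in vehicle cells (0.235 to 0.418), so that these groups did not overlap. At 24 h the values were 0.394 in Aa cells (0.264 to 0.547) and 0.306 in vehicle cells (0.246 to 0.355). Its part in the members' changes was not tested. Over all probe sets, pairs of arrays within a group had correlations of 0.994 to 0.997, and pairs of an Aa and a vehicle array had 0.949 to 0.976.

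The labelled cell type had little support among its listed markers. Of 13 markers of the proximal tubule 1 exceeded log2 4, which was the peptidase DPP4, and it was not called at 24 h or 48 h (limma adjusted p = 0.811 and 0.146), but passed at 48 h with the replicate block (0.29, adjusted p = 0.00828). Of markers of the distal nephron 1 of 5 on the array exceeded that level (SLC12A1), of the endothelium 1 of 6 (TEK), of leukocytes 0 of 5, and of fibroblasts 3 of 5 (COL1A1, DCN and LUM). On the linear scale, summed proximal tubule markers ranged from 3107 to 4023 in Aa cells at 24 h, against 3060 to 3934 in vehicle cells. At 48 h they ranged from 4257 to 6005 in Aa cells, against 3826 to 4686 in vehicle cells. These sums rest mostly on DPP4, since the other proximal tubule markers averaged under log2 4. Summed fibroblast markers ranged from 3679 to 5217 in Aa cells at 24 h, against 4907 to 6956 in vehicle cells. Their 48 h range was 4155 to 4835 in Aa cells, against 4639 to 5547 in vehicle cells. COL1A1 was called lower at 24 h, at -0.73 (limma adjusted p = 0.00947). Their part in the results was not tested. In such samples fewer cells of a kind and less RNA per cell cannot be told apart.

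Partners of the marker proteins changed in both directions. For this list and those below, the share called over all genes tested was 49.1% at 24 h (26.3% higher, 22.8% lower). At 48 h it was 64.5% (30.6% higher, 33.9% lower). Of 15 listed binding partners and receptors, 10 were tested, of which 1 was higher and 5 lower under Aa at 24 h, and 2 were higher and 4 lower at 48 h. TIMD4, known in the mouse as a ligand of the HAVCR1 protein, averaged 7.94 in Aa cells at 24 h and 7.82 in Aa cells at 48 h, while all vehicle arrays lay under log2 4. It was at least 15.4-fold higher at 24 h and at least 14.1-fold higher at 48 h. It passed the filter through its Aa arrays alone, so its limma calls add no support. It has 1 probe set.

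Of the integrin subunits that take part in binding osteopontin, ITGB3, ITGAV and ITGB5 were lower at both times. ITGB3, the beta subunit of the vitronectin receptor, was 2.99-fold lower at 24 h (limma adjusted p = 5.89e-05), with all 7 of its probe sets lower on average, and changed by -0.69 at 48 h (limma adjusted p = 0.00854). ITGAV and ITGB5 changed by -0.31 and -0.63 at 24 h and by -0.64 and -0.90 at 48 h. The 24 h call of ITGAV was lost without Aa replicate 1 or 3 or vehicle replicate 1 or 3 (adjusted p = 0.0582 to 0.109), with equal array medians (0.0664) and with 24 h arrays alone (0.05003). ITGB1 was at -0.06 and -0.09 and was not called. CD44, the other osteopontin receptor, was at -0.12 at 24 h (limma adjusted p = 0.701) and rose 2.22-fold at 48 h (limma adjusted p = 0.00140). Of the lipoprotein receptors that bind clusterin, LRP8 was 1.84-fold lower at 24 h (limma adjusted p = 0.00419) and at -0.34 at 48 h (limma adjusted p = 0.161). The mean of all probe sets of LRP8 was at -0.28 at 24 h and was not called (limma adjusted p = 0.195). VLDLR was lower at both times, by -0.68 at 24 h (limma adjusted p = 0.0124, and 0.0545 without vehicle replicate 1) and 3.58-fold at 48 h (limma adjusted p = 1.01e-05). The integrin subunit ITGA4, whose heterodimer binds VCAM1, was at -0.81 and -0.70 and was not called (limma adjusted p = 0.0645 and 0.0838), but passed as lower at both times with the replicate block (adjusted p = 0.0230 and 0.0341).

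Proteases known to cut HAVCR1 or VCAM1 off the cell surface went in different directions. Of 4 tested, 2 were higher and 1 lower at 24 h, and 1 was higher and 1 lower at 48 h. The metalloprotease ADAM9 averaged 9.87 in Aa cells at 24 h, against 7.90 in vehicle cells, and 9.79 in Aa cells at 48 h, against 7.90 in vehicle cells. It was thus 3.90-fold and 3.70-fold higher (limma adjusted p = 2.38e-06 and 1.68e-06). Of the 3 ADAM9 probe sets 2 were higher on average at 24 h and all 3 at 48 h. ADAM10 was 1.66-fold lower at 24 h and lower, at -1.14 on the log2 scale, at 48 h (limma adjusted p = 0.000136 and 3.04e-06). ADAM17 was 1.28-fold higher at 24 h (limma adjusted p = 0.0181) and was not called at 48 h (limma adjusted p = 0.407), and its 24 h call was lost without Aa replicate 1, without vehicle replicate 2 and without vehicle replicate 3 (adjusted p = 0.0784, 0.0690 and 0.0586). Scaling to equal hybridisation controls left ADAM17 at 0.073 at 24 h (adjusted p = 0.696). The mean of its probe sets and the 24 h arrays alone lost that call too (adjusted p = 0.0683 and 0.0632).

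All 9 listed cathepsins, the lysosomal proteases that include the targets of cystatin C, were tested. At 24 h 1 was higher and 2 lower, and at 48 h 3 were higher and 2 lower. CTSK was at least 3.40-fold higher at 24 h, with 2 of 3 vehicle arrays under log2 4, and 3.21-fold higher at 48 h (limma adjusted p = 0.000312 and 0.000634). CTSH was 1.60-fold lower at 24 h and 3.61-fold lower at 48 h (limma adjusted p = 0.00656 and 4.06e-06). CTSV and CTSL rose at 48 h by 1.42 and 1.00 on the log2 scale (limma adjusted p = 2.74e-05 and 5.34e-06). CTSC was 1.19-fold lower at 24 h (limma adjusted p = 0.0312) and lower too at 48 h (limma adjusted p = 0.0180). Its 24 h call was lost under quantile normalization (adjusted p = 0.126), equal array medians (0.0557), 24 h arrays alone (0.0751) and without Aa replicate 1 or 2 or vehicle replicate 1 or 2 (0.0806 to 0.110). Its 48 h call was lost under quantile normalization (0.0805), with 48 h arrays alone (0.0546) and without Aa replicate 1 (0.0579) or vehicle replicate 2 (0.0631).

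Relatives of the members were largely under the filter. Of 14 other SOX genes 5 were tested, with 2 higher and 0 lower at 24 h, also 0 lower at an unadjusted p under 0.05 in limma, and 2 higher and 1 lower at 48 h. SOX15 was at least 2.40-fold higher at 24 h and at least 1.79-fold higher at 48 h, with all vehicle arrays under log2 4. It passed the filter through its Aa arrays alone, so its limma calls add no support. Of its 2 probe sets 1 was higher at 24 h and 2 at 48 h. The mean of its probe sets was higher by 0.98 at 24 h and 0.79 at 48 h on the log2 scale. SOX13 was 1.38-fold higher at 24 h (limma adjusted p = 0.0202), a call lost without Aa replicate 1, vehicle replicate 2 or vehicle replicate 3 (adjusted p = 0.0849, 0.0735 and 0.0659). Scaling to equal hybridisation controls left SOX13 at 0.18 (adjusted p = 0.419), and the 24 h arrays alone lost the call (adjusted p = 0.0559). SOX6 was 3.27-fold higher at 48 h (limma adjusted p = 0.000142), where 3 of its 8 probe sets were higher. SOX12 was 1.65-fold lower at 48 h (limma adjusted p = 0.00999), where 1 of its 2 probe sets was lower and their mean was at 0.11 (limma adjusted p = 0.611).

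Of 14 other cystatin and fatty acid binding protein genes 2 were tested. FABP5, the epidermal fatty acid binding protein, averaged 10.63 in Aa cells at 24 h, against 10.37 in vehicle cells, and was not called (limma adjusted p = 0.436). At 48 h it averaged 11.55 in Aa cells, against 9.43 in vehicle cells, and was 4.34-fold higher (limma adjusted p = 4.42e-05). The intracellular inhibitor CSTB was at -0.21 at 24 h (limma adjusted p = 0.129, and 0.0302 with the replicate block) and 1.28-fold lower at 48 h (limma adjusted p = 0.0125). That call was lost without Aa replicate 2 (adjusted p = 0.0523) and with the mean of its probe sets, at -0.012 (adjusted p = 0.959).

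Other secreted or urinary markers of kidney injury changed in both directions. Of 22 listed, 17 were tested, of which 2 were higher and 4 lower at 24 h, and 5 higher and 4 lower at 48 h. HBEGF, an epidermal growth factor receptor ligand, averaged 10.32 in Aa cells at 24 h, against 7.39 in vehicle cells, and 11.80 in Aa cells at 48 h, against 5.97 in vehicle cells. That is 7.59-fold and 56.8-fold higher (limma adjusted p = 0.000124 and 5.04e-07), and 2 of its 4 probe sets were higher at 24 h and all 4 at 48 h. The mean of all HBEGF probe sets was higher by 1.48 at 24 h and 3.05 at 48 h on the log2 scale. GDF15, a stress cytokine, was higher at both times, by 0.67 and 1.09 on the log2 scale. Its 24 h call was lost without Aa replicate 1 or 2 or vehicle replicate 1 (adjusted p = 0.0623 to 0.0721), with the mean of its probe sets (0.0626) and with equal hybridisation controls (0.144). CCN2, TNFRSF12A and TIMP1 completed the 5 higher genes at 48 h, of which TIMP1 (0.32, limma adjusted p = 0.0116) turned to -0.12 with equal hybridisation controls (adjusted p = 0.502).

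Chemokines and other secreted proteins made up the lower genes. CCL2, the monocyte chemoattractant, was at -1.02 at 24 h (limma adjusted p = 0.101, and 0.000520 with the replicate block) and at least 6.85-fold lower at 48 h, with 2 of 3 Aa arrays under log2 4 (limma adjusted p = 0.000133). CHI3L1, the secreted glycoprotein YKL-40, was lower, at -0.92 at 24 h and was 4.95-fold lower at 48 h (limma adjusted p = 1.75e-07). The neutrophil chemokine CXCL8 was 1.91-fold lower at 24 h (limma adjusted p = 0.00103) and at 0.34 at 48 h (limma adjusted p = 0.103). CCN1 was 1.92-fold lower at 24 h (limma adjusted p = 0.00543). The fibrinogen chain FGB was lower at 24 h, and the cytokine IL18 and the complement component C3 were lower at 48 h.

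**Figure D4:**
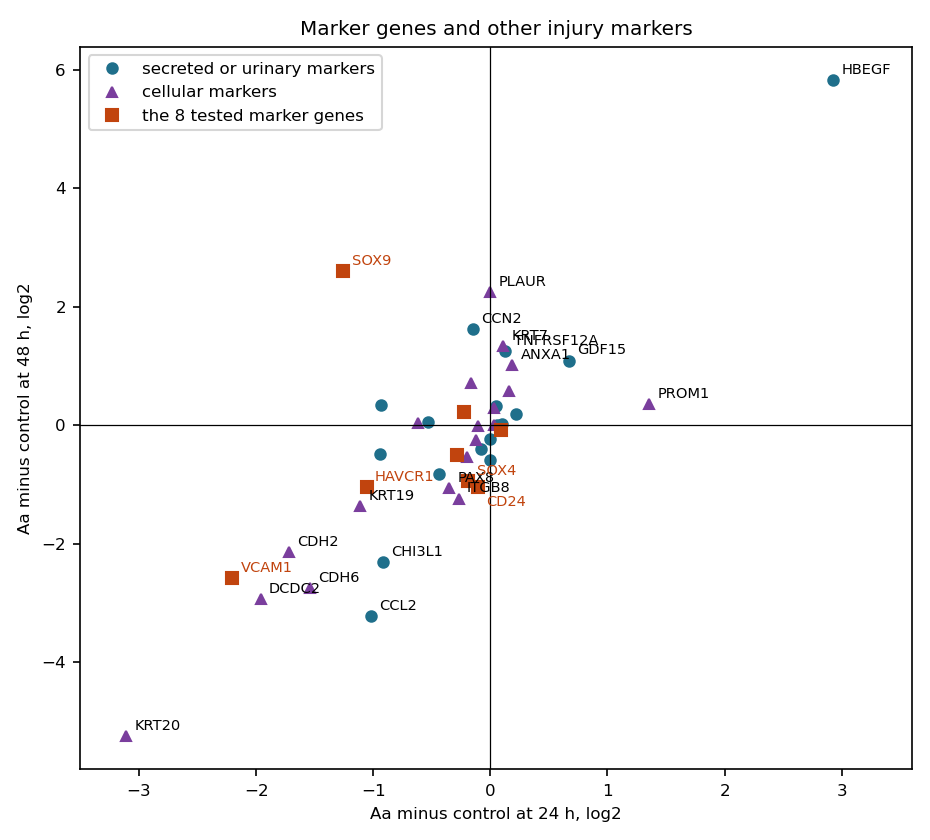
Log2 change, Aa minus vehicle, at 24 h (horizontal) and 48 h (vertical) for the 8 tested marker genes (squares), 17 other secreted or urinary markers (circles) and 19 other cellular markers (triangles). HBEGF lies at the upper right and KRT20 at the lower left, and SOX9 lies at the upper left with -1.25 at 24 h and 2.60 at 48 h.

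Cellular markers of injured or dedifferentiated tubules changed in both directions. Of 22 listed, 21 were on the array and 19 were tested, with 1 higher and 6 lower at 24 h and 5 higher and 8 lower at 48 h. Their median log2 change was -0.17 at 24 h and -0.02 at 48 h, beside 0.02 and -0.03 over all genes. KRT20, a keratin of injured tubules, was at least 6.07-fold lower at 24 h and at least 25.0-fold lower at 48 h. Of its Aa arrays, 2 of 3 at 24 h and all 3 at 48 h lay under log2 4. KRT20 needed its vehicle arrays to pass the filter, so its limma calls add no support. DCDC2, a doublecortin family gene, was 3.90-fold lower at 24 h and 7.63-fold lower at 48 h (limma adjusted p = 6.41e-05 and 1.90e-06). N-cadherin (CDH2) was 3.30-fold lower at 24 h (limma adjusted p = 0.000167). At 48 h it averaged 7.01 in Aa cells, against 9.15 in vehicle cells. Cadherin 6 (CDH6) was lower at 24 h, at -1.54 (limma adjusted p = 0.00192). It was 6.74-fold lower at 48 h with all 6 of its probe sets lower (limma adjusted p = 2.03e-05).

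The markers that were higher were other genes. The stem cell marker PROM1 was the 1 higher gene at 24 h, at least 1.81-fold, with 2 of 3 vehicle arrays under log2 4 (limma adjusted p = 0.0179). That call was lost with values under log2 4 set to log2 4 (adjusted p = 0.0583), with no filter on low values (0.0525), without Aa replicate 2 (0.0527) and without vehicle replicate 1 (0.0751). PROM1 was not called at 48 h (limma adjusted p = 0.468). At 48 h the 5 were the urokinase receptor PLAUR at 2.24, the keratins KRT7 at 1.33 and KRT8 at 0.71, the annexin ANXA1 at 1.01 and S100A11 at 0.57. With equal hybridisation controls KRT8 and S100A11 were at 0.26 and 0.13 and were not called (adjusted p = 0.401 and 0.567). The KRT8 call was also lost with no filter on low values (0.0573) and without Aa replicate 1 (0.0836), Aa replicate 3 (0.0666) or vehicle replicate 2 (0.0981, with KRT8 at 0.46). Other keratins went the other way. KRT18 and KRT19 were lower at 24 h, at -0.62 and -1.11 (limma adjusted p = 0.00224 and 0.000678). At 48 h KRT19 averaged 11.16 in Aa cells, against 12.53 in vehicle cells, and KRT18 averaged 12.83, against 12.79. The kidney lineage factor PAX8 and the integrin subunit ITGB8 were lower at 48 h, by -1.07 and -1.24 (limma adjusted p = 0.000105 and 0.000793).

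Transcription factors reported to act on member genes changed in both directions. Of 20 listed, 16 were on the array and 15 were tested, with 5 higher and 3 lower at 24 h and 4 higher and 5 lower at 48 h. IRF1, which acts on VCAM1, was 4.29-fold higher at 24 h (limma adjusted p = 1.93e-06) and higher by 1.89 at 48 h. The NF-kB subunit RELB was 2.45-fold higher at 24 h and at least 4.70-fold higher at 48 h (limma adjusted p = 0.00449 and 6.00e-05), and RELA was higher by 0.60 and 0.90 (limma adjusted p = 0.0198 and 0.00145). With equal hybridisation controls RELA was called at neither time (adjusted p = 0.240 and 0.0802), and its 24 h call was lost with the mean of its probe sets (0.127) and without Aa replicate 1 or 3 or vehicle replicate 2 (0.0588 to 0.0835). NFKB1 was at -0.12 at 24 h (limma adjusted p = 0.363) and lower, at -0.32 at 48 h (limma adjusted p = 0.0174). The NFKB1 call was lost with 48 h arrays alone (0.0691) and without Aa replicate 2 or 3 or vehicle replicate 1 (adjusted p = 0.0615 to 0.0653). RUNX2, a regulator of SPP1 in bone, was 2.30-fold higher at 24 h (limma adjusted p = 0.000145), where 2 of its 6 probe sets were higher, and at -0.36 at 48 h (limma adjusted p = 0.0764).

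SMAD3, the mediator of TGF-beta signals, was higher by 1.16 at 24 h and 3.81-fold higher at 48 h (limma adjusted p = 0.00798 and 0.000202), with the mean of its probe sets not called at 24 h (0.16, adjusted p = 0.449). HNF4G, a hepatocyte nuclear factor of tubule and gut, was lower, at -1.20 at 24 h and at least 3.77-fold lower at 48 h (limma adjusted p = 3.54e-05 and 6.29e-07). The Hippo pathway co-activator YAP1, reported upstream of SOX9, was lower, at -0.65 at 24 h and by -1.28 at 48 h (limma adjusted p = 0.00574 and 3.69e-05). PPARA, a regulator of FABP1, was lower, at -1.81 at 48 h (limma adjusted p = 0.000868).

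Across the 12 arrays some other genes followed the members closely, which is given as a description, since all 12 arrays share the 4 groups. HAVCR1 was most like GNG12 (Pearson r = 0.994) and ITFG2 (0.992), and VCAM1 most like PDCD6 and HIBCH (both 0.983). CD24 was most like WASF3 (0.983) and MCU (0.981), SOX4 most like HNRNPR (0.991) and SLC40A1 (0.989), and SOX9 most like MSRB2 (0.942) and CHPT1 (0.939). CLU was most like LAMB1 (0.947) and CCNI (0.943), CST3 most like LGALS3BP (0.964) and BBLN (0.959), and SPP1 most like SMIM14 (0.923) and SNX14 (0.912). Among the members themselves, HAVCR1 and VCAM1 correlated at 0.950, CD24 and SOX4 at 0.933, and CD24 and SOX9 at -0.80.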

How the data were processed

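Per the submitters' processing notes, the authors used GCRMA to make the deposited log2 values of 12 Affymetrix arrays. That method corrects background by probe sequence, normalises between arrays and summarises each probe set. No version of it was given. Such values hide a change shared by most transcripts.

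Genes came from the platform annotation (41091 of 54675 probe sets named 1 gene), with symbols checked in RefSeq (GRCh38.p14). The filter kept genes over log2 4 on at least 3 of 12 arrays. limma 3.58.1 in R 4.3.3 fitted 4 group means to 11184 genes, with 8 residual and 2.79 prior degrees of freedom, Benjamini-Hochberg adjustment and a threshold of 0.05. The median SE of a log2 change was 0.161. The fit was tested on simulated data with 200 genes changed. There the noise was independent between arrays, and far fewer genes changed than were called here. It therefore checks the code and not the calls in these data. Python 3.11.15 and matplotlib 3.10.9 drew the figures.

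Replicate numbers paired the arrays: deviations from group means correlated at 0.279 to 0.577 for 18 pairs with the same number. The 36 pairs with different numbers were at -0.371 to -0.0286. Deviations cancel within a group, so that second range follows in part from the first and is no separate evidence. A replicate block was an alternative, and is given beside a reported value whose call it changed, as for CLU at 48 h (-0.51, adjusted p = 0.000327 with the block). "At least" folds set values under log2 4 to log2 4. Named genes were the 10 members, up to 3 called genes per list and time with the largest change, genes needed to give counts of 5 or fewer, and the 2 genes most correlated with each member. Some further listed genes (among them ITGA4, ITGAV, ITGB5, GDF15, PAX8, ITGB8, YAP1, PPARA, RELA and NFKB1) were chosen for naming after their values were seen. Members and lists were chosen with earlier results of these data known. Alternatives covered scaling, filter, floor, probe sets, variance model, block, times fitted apart and each array left out. The mean of a gene's probe sets included those under log2 4, which can draw it towards no change.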

Additional observations from a re-analysis of the deposited data

Results flagged for a closer look

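The Aa-minus-vehicle change at 48 h differed from that at 24 h for 3 of the 8 members and 23 of 81 other listed genes tested, in limma's test of that difference, where 19.5% of all genes tested did. Values are 48 h change minus 24 h change on the log2 scale. Among the members these were SOX9 at 3.86 (adjusted p = 0.00224), CD24 at -0.94 (adjusted p = 0.00178) and SOX4 at -0.75 (adjusted p = 0.0133). Among binding partners they were CD44 at 1.27, ITGB3 at 0.89 and VLDLR at -1.17 (adjusted p = 0.0256, 0.0427 and 0.0153). The cathepsins CTSV, CTSL and CTSH were at 1.25, 0.80 and -1.18 (adjusted p = 0.00737, 0.00423 and 0.00907). Of the secreted markers, HBEGF and CXCL8 were at 2.90 and 1.28 (adjusted p = 0.00739 and 0.00728), and CCL2 and CHI3L1 were at -2.21 and -1.39 (adjusted p = 0.0428 and 0.00184). CCN2 and FGB were at 1.76 and 0.59 (adjusted p = 0.00842 and 0.0350). Of the cellular markers, PLAUR was at 2.24, KRT7 at 1.22, ANXA1 at 0.82 and KRT18, a further keratin, at 0.66 (adjusted p = 0.0211, 0.0320, 0.0496 and 0.0301), with KRT20 at -2.14 and PAX8 at -0.72 (adjusted p = 0.0231 and 0.0406). SOX6 and FABP5 were at 1.68 and 1.85 (adjusted p = 0.0113 and 0.00941). The factors RUNX2, HNF4G and PPARA were at -1.56, -0.73 and -1.74 (adjusted p = 0.00265, 0.0245 and 0.0323). CCL2, KRT20 and HNF4G had Aa arrays under log2 4, so their differences have no exact size. Some of the differences lay partly or mostly in vehicle cells. FGB averaged 5.10 and 5.16 in Aa cells at 24 h and 48 h, against 5.63 and 5.10 in vehicle cells. KRT18 averaged 12.74 and 12.83 in Aa cells, against 13.36 and 12.79 in vehicle cells. Vehicle KRT20 went from 6.65 to 8.64, CTSH from 10.78 to 11.58 and CCL2 from 5.95 to 6.94. Vehicle HBEGF went from 7.39 to 5.97 and FABP5 from 10.37 to 9.43. CHI3L1 was higher in vehicle cells at 48 h than at 24 h, by 1.04 (limma adjusted p = 0.0110).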

How the results depend on the processing

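The calls of HAVCR1 and VCAM1 at both times, and of SOX9 and CD24 at 48 h, kept their direction and stayed past the threshold under each of 22 alternatives. Scaling to equal hybridisation controls called 5 members at 24 h and 1 between the vehicle times. It turned uncalled values: SPP1 to -0.19 at 24 h, CST3 to -0.21 at 48 h, the HAVCR1 time difference to -0.15 (-0.054 with equal medians), and between the vehicle times SPP1 to -0.19, CD24 to -0.066 and SOX4 to -0.29. Averaging a gene's probe sets gave CST3 1.85 at 24 h, SPP1 0.032 and SOX12 0.11 at 48 h, and SOX4 -0.11 between the vehicle times. Of 79 called changes of named genes outside the members, scaling to hybridisation controls lost 8 and moved 24 by over 1.5 times (TIMP1 turned to -0.12 at 48 h), averaging probe sets lost 7 and moved 23, and the replicate block lost 0. The replicate block called 2 members between the vehicle times, 4314 genes for the difference between the times (2179 without it) and 1669 between the vehicle times. The vehicle count of 71 became 1953 with hybridisation controls, 141 with values floored at log2 4 and 146 with a trended robust variance. The cause of these shifts was not tested.

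Leaving out each array gave 1241 to 2595 genes for the difference between the times. That count moved by over 1.5 times without Aa 24 h replicate 2 (1300), Aa 48 h replicate 3 (1402), vehicle 24 h replicate 3 (1241), vehicle 48 h replicate 1 (1434) or vehicle 48 h replicate 2 (1262). Between the vehicle times it gave 3 to 540 genes, with 540 without vehicle 48 h replicate 3 and 3 without vehicle 48 h replicate 1, and every one of the 12 arrays moved that count by over 1.5 times. Uncalled values crossed 0 over these fits, with ranges of -0.40 to 0.032 for CST3 at 24 h and -0.090 to 0.071 for the HAVCR1 time difference. Between the vehicle times the ranges were -0.070 to 0.059 for HAVCR1, -0.40 to 0.17 for VCAM1, -0.21 to 0.14 for CST3 and -0.048 to 0.093 for SOX4. With 3 arrays a group the median SE of 0.161 limits what can be called, and signals under log2 4 give only an upper bound.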
